A study of Mus musculus with 2 samples.

Results

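This account covers 31 genes of cholesterol synthesis, its SREBP2 control, and cholesterol uptake, storage and efflux, out of 20823 genes in a count table of sorted mouse hepatocytes. The members were named by symbol and found in the table by their Ensembl identifiers, and all 31 were listed. They comprise 9 enzymes of early synthesis (from acetyl-CoA to squalene), 10 enzymes of late synthesis (from squalene to cholesterol), 4 genes of SREBP2 control, 6 of uptake, intracellular transport and storage, and 2 of efflux and plasma esterification. A single library was made for each of 2 conditions. The control library came from untreated C57BL6J mice aged 8 weeks, and the APAP library from mice of the same strain and age that had received 300 mg/kg acetaminophen (APAP) in saline into the peritoneum 24 h before. Whether the control received saline, and how many animals went into a library, is not given in the labels. Both libraries were made from 20000 hepatocytes that were sorted after collagenase perfusion as negative for the endothelial protein CD31 and the leukocyte protein CD45 and high for surface Cxcr2, so they hold a selected fraction of hepatocytes.

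Hepatocytes build cholesterol from acetyl-CoA by way of mevalonate, the isoprenoid diphosphates and squalene, which is oxidised, closed to the ring compound lanosterol and then trimmed and reduced to cholesterol. The transcription factor SREBP2 is made as a membrane protein of the endoplasmic reticulum and is carried by SCAP. When sterols are plentiful, INSIG proteins hold the SCAP complex in the endoplasmic reticulum, and when sterols are scarce the complex moves to the Golgi, where proteases free the part of SREBP2 that enters the nucleus and activates genes of synthesis and uptake. In promoters, SREBP proteins bind sterol regulatory elements together with partner factors such as NF-Y and Sp1. The liver also takes up lipoprotein cholesterol, stores it as esters, turns it into bile acids and returns it to plasma with HDL.

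The promoters of 6 members are shown because these genes cover the range of differences described here. Mvd, Lss, Cyp51 and Insig1 were 2-fold or more higher after APAP, Hmgcs1 stood just under 2-fold, and Tm7sf2, an enzyme of the same pathway, stood below 1. The sequences are RefSeq's for build GRCm38.p6, whereas the submitters' processing notes name mm39 for the counts. Each runs 5′ to 3′ on the strand of its gene over 250 bases before and 50 bases after the transcription start. They lie at chr13:119690101-119690400 on the plus strand (Hmgcs1), chr8:122443373-122443672 on the minus strand (Mvd), chr10:76531355-76531654 on the plus strand (Lss), chr5:4104648-4104947 on the minus strand (Cyp51), chr5:28071162-28071461 on the plus strand (Insig1) and chr19:6067801-6068100 on the minus strand (Tm7sf2). Capitals mark matches to a sterol regulatory element, TCACNCCAC, and to the NF-Y box, CCAAT, on either strand.
Hmgcs1: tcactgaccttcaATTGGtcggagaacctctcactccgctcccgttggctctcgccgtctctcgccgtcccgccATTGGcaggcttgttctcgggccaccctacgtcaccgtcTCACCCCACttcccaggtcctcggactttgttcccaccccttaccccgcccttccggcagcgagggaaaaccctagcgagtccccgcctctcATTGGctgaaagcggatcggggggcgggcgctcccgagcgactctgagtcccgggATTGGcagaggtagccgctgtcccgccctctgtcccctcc
Mvd: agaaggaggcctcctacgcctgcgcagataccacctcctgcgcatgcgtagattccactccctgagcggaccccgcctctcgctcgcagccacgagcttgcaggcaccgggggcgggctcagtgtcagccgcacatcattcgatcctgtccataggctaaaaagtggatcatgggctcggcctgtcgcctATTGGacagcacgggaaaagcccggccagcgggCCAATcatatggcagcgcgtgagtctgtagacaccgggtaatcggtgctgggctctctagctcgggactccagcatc
Lss: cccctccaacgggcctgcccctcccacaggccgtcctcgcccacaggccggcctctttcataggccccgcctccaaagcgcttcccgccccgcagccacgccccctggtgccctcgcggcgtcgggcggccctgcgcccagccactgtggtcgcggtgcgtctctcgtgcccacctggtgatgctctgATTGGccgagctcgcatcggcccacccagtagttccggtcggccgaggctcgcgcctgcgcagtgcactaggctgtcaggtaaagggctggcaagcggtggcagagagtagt
Cyp51: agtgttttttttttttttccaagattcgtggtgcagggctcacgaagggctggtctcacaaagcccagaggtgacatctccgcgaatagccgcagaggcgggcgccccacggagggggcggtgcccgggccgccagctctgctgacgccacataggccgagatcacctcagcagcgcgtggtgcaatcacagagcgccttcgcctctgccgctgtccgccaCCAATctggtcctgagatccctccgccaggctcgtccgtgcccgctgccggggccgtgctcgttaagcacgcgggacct
Insig1: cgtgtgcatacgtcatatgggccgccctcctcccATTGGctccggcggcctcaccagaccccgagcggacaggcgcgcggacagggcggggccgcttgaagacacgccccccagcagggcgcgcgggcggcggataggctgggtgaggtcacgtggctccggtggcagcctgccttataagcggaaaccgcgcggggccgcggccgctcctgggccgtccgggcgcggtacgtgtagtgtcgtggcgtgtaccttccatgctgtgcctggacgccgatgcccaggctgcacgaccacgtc
Tm7sf2: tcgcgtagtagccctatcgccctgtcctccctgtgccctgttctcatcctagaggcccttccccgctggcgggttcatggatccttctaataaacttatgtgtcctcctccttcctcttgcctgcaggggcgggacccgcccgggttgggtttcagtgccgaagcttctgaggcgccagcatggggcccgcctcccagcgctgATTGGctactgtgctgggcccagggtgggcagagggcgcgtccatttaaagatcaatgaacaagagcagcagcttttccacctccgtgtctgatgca

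The window of Hmgcs1 held the sterol regulatory element as TCACCCCAC, with its first base at position -137 from the start. Hmgcs1 also had 4 NF-Y boxes, the most among these 6, while Mvd had 2, and Lss, Cyp51, Insig1 and Tm7sf2 had 1 each. Over all members, 24 had at least 1 promoter in the table, and 20 of them had a single one. Fdft1, Fdps, Sqle, Npc1, Stard4, Soat2 and Scarb1 had no entry. The sterol element was found in 1 of these 24 genes (4.17%), compared with 1.44% of all 27025 genes of the promoter table. The NF-Y box was found in 21 of 24 members (87.5%), against 41.1% of all genes of the table and 43.4% of the 9651 that had at least 20 counts here. Among synthesis enzymes the share was 15 of 16 (93.8%), with Acat2 the exception. The GC box GGGCGG, a site type bound by Sp1, was found in 21 of 24 members (87.5%), against 38.2% of all genes and 66.8% of those with at least 20 counts. Among members no match to one of the 3 motifs overlapped a match to another, and a match is a run of letters, not a shown binding site. NF-Y boxes occurred both in enzymes that were higher in the APAP library and in Tm7sf2 and Sc5d, which were below 1, so this match did not separate the members by direction.

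**Figure D1:**
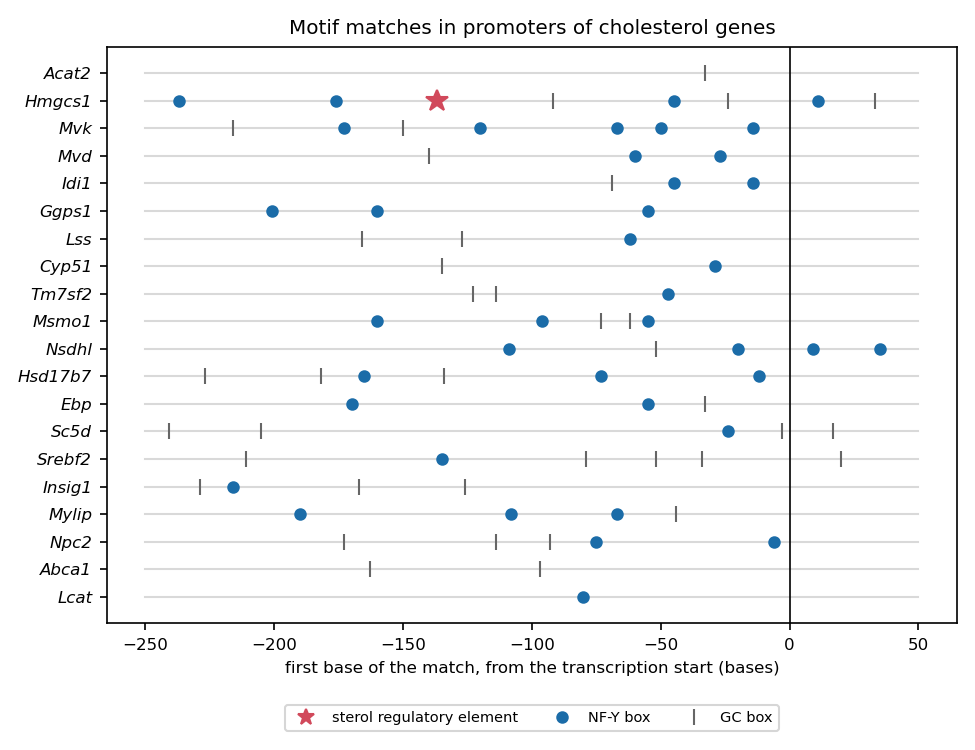
Motif matches in the promoters of the 20 members with a single promoter in the RefSeq table, in pathway order. The horizontal axis is the first base of each match from the transcription start, in bases, and symbols stand for the sterol regulatory element, the NF-Y box and the GC box on either strand. Hmgcs1 has the 1 sterol element, at -137, and NF-Y boxes are found in early and late enzymes alike.

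Each library held about the same number of counts, with 52419864 for control and 51009898 for APAP. Levels are in CPM, that is per 1000000 counts of a library total corrected by edgeR's TMM, a trimmed mean of log ratios over genes. A single count equals 0.0215 CPM for control and 0.0174 CPM for APAP. Where a pair of values is given for a gene, control comes first and APAP second. The fold is the APAP level over the control level, and the range after it is its 95% counting interval. With 1 library per condition there was no replicate check, no p-value was computed, and the intervals compare these libraries, not the conditions. A gene was called higher or lower at a fold of at least 2 in that direction, with an interval that excluded 1 and at least 20 counts in both libraries together. Compared with TMM, scaling by total counts shifts log2 folds upward by 0.35, and totals without genes above 1% of a library by 0.34, slightly less for genes with few counts. In bulk samples a lower level in each cell and a smaller share of cells with the transcript cannot be told apart.

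Transcripts of 16 of the 19 synthesis enzymes were more abundant after APAP with TMM scaling, while those for uptake, storage and efflux, other than Scarb1, were near or below their control level. Of all 14096 genes with at least 20 counts, 7200 had a fold above 1. Genes without a control count have no fold and are not among these 7200. Of the 30 members with at least 20 counts, 8 were called higher and 0 were called lower, beside 10.7% of all 14096 genes with that count called higher and 7.09% called lower. Among genes with at least 100 counts the background was 7.14% higher and 5.54% lower. The members called were again 8, and this could not change, since each had more than 100 counts in each library. The 8 were Mvd, Fdps, Sqle, Lss, Cyp51, Nsdhl and Dhcr7, all enzymes, and Insig1. With total counts 13 members were called higher and 0 lower, beside 17.3% and 4.44% of all genes. The median log2 fold was 0.87 over the 19 synthesis enzymes and -0.03 over the 11 other members with at least 20 counts, compared with 0.02 over all genes. Summed over the 19 enzymes, the levels were 1751 and 2732 CPM, a ratio of 1.56. The other 12 members summed to 1512 and 1603 CPM, a ratio of 1.06.

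**Figure D2:**
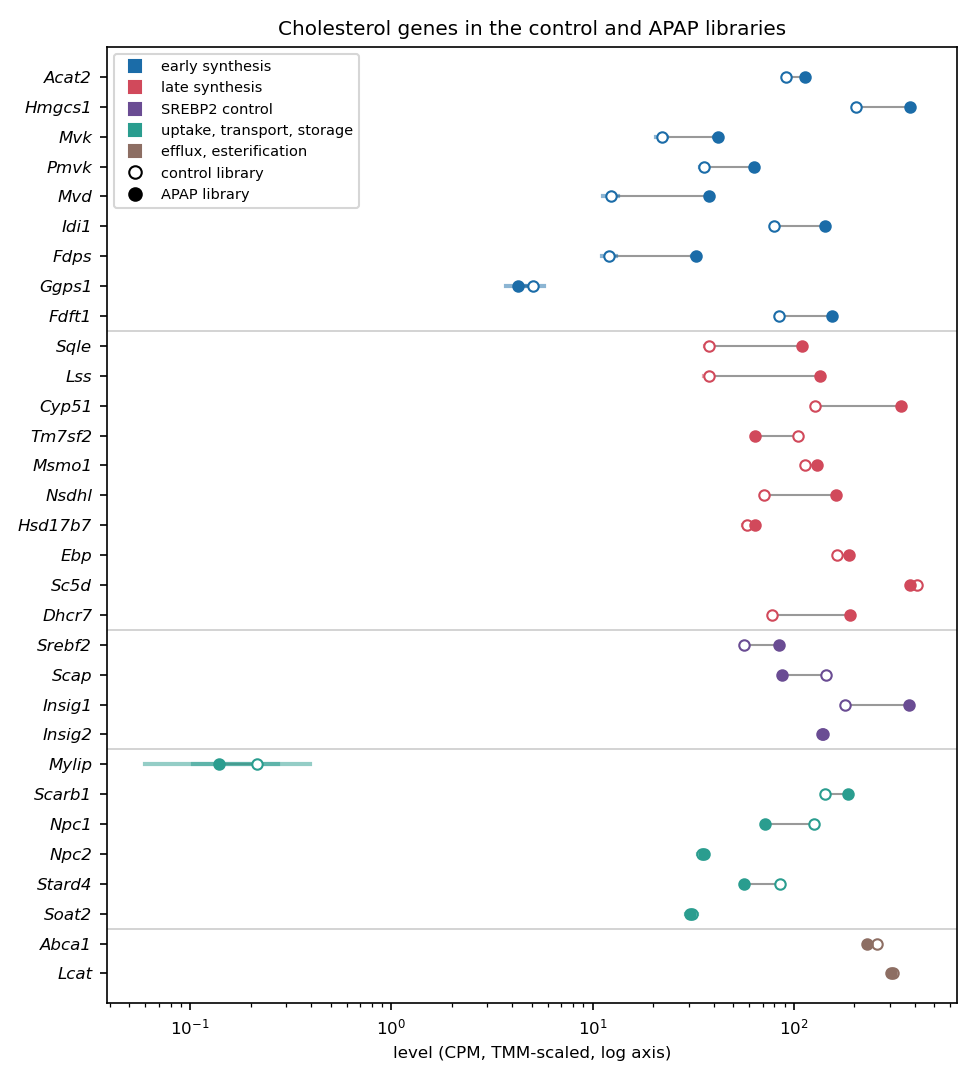
Levels of all 31 members in CPM on a log axis, with the control library as open and the APAP library as filled circles, joined by a line. Thick bars are 95% counting intervals, which are narrower than the symbols for most genes. Most early and late enzymes lie to the right in the APAP library, while Mylip is near the floor in both.

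Most early enzymes were moderately higher after APAP. Of the 9 in this group, 2 were called higher, beside 10.7% of all genes. At 1.5-fold, 7 of them were higher, a threshold passed upward by 17.6% of all genes and downward by 13.1%. The first step is made by Acat2, the cytosolic thiolase that joins acetyl-CoA units, which had 4271 and 6533 counts, a fold of 1.24 (1.19 to 1.29). Its value is uncertain because 39.1% of its 50-base words also occur in transcripts of other genes, chiefly its near copy Acat3, which itself had a fold of 0.96. Hmgcs1, the cytosolic HMG-CoA synthase, had 9491 and 21768 counts, or 204 and 379 CPM, a fold of 1.86 (1.81 to 1.90).

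The enzymes that phosphorylate and decarboxylate mevalonate followed the same direction. Mvk, mevalonate kinase, was at 22.1 and 41.9 CPM, and Pmvk, phosphomevalonate kinase, at 35.9 and 63.3 CPM, with folds of 1.90 (1.76 to 2.04) and 1.76 (1.66 to 1.87). Mvd, the decarboxylase that makes isopentenyl diphosphate, had 572 and 2188 counts, a 3.09-fold higher level (2.82 to 3.40), the largest fold of the early enzymes. Its interval did not overlap those of the kinases just before it. Idi1, the isomerase of isopentenyl diphosphate, had a fold of 1.79 (1.72 to 1.86).

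At the branch of the isoprenoids the genes differed. Fdps, which makes farnesyl diphosphate, had 562 and 1883 counts, a 2.71-fold higher level (2.47 to 2.98). Ggps1, which extends farnesyl to geranylgeranyl diphosphate for protein prenylation and so leads away from sterols, had only 235 and 244 counts and a fold of 0.84 (0.699 to 1.01), an interval that includes 1, and it lay at 1.07 with total counts. Fdft1, squalene synthase, the first enzyme committed to sterols, had 3932 and 8899 counts and a fold of 1.83 (1.76 to 1.90). The interval of Ggps1 thus lay wholly below those of the enzymes on either side of it. Fdps shares 26.2% of its 50-base words with other genes, including an overlapping gene on the same strand, and Fdft1 shares 26.5%, chiefly with Ctsb on the opposite strand, so both values carry that uncertainty. Reads may also be shared at Idi1 (25.3% of words), at Hmgcs1 and Scap, whose exons overlap a gene on the opposite strand over 12.1% and 13.2% of their length, and at Tm7sf2, which overlaps Vps51 over 12.1%.

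Late synthesis held the highest fold of all members, that of Lss, and also the lowest fold among the 19 enzymes, that of Tm7sf2. The median log2 fold was 0.69 over the 10 late enzymes and 0.87 over the 9 early ones. Sqle, squalene epoxidase, which puts the first oxygen on squalene, had 1756 and 6309 counts, a 2.91-fold higher level (2.76 to 3.07). Lss, the cyclase that forms lanosterol, had 1755 and 7732 counts, or 37.7 and 134 CPM, a 3.56-fold higher level (3.38 to 3.76), the largest fold of all 31 members. Cyp51, the lanosterol demethylase, was at 127 and 341 CPM, a fold of 2.69 (2.61 to 2.77). Nsdhl, a dehydrogenase that removes the C4 methyl groups together with Msmo1 and Hsd17b7, was 2.26-fold higher (2.17 to 2.35). Dhcr7, which makes cholesterol from 7-dehydrocholesterol, had 3642 and 10917 counts, a 2.42-fold higher level (2.34 to 2.52). These 5 of 10 late enzymes were called higher, and 0 were called lower, beside 10.7% and 7.09% of all genes.

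The other 5 late enzymes lay between 0.61 and 1.15. Msmo1, the C4 methyl oxidase, had a fold of 1.15 (1.11 to 1.19), the ketoreductase gene Hsd17b7 1.11 (1.05 to 1.16), and the isomerase gene Ebp 1.14 (1.11 to 1.18). Sc5d, the lathosterol oxidase, had a fold of 0.93 (0.907 to 0.943), which became 1.18 with total counts. Tm7sf2, a sterol C14 reductase that acts on the product of Cyp51, had 4898 and 3680 counts, or 105 and 64.0 CPM, a fold of 0.61 (0.582 to 0.634), and stayed below 1 with total counts at 0.77. The Cyp51 and Tm7sf2 steps follow each other directly, and their intervals were far apart. Lbr, which encodes another C14 reductase of the nuclear membrane, had a fold of 1.20 at 6.02 and 7.25 CPM. The late enzymes thus fell into 2 sets without overlap: Sqle, Lss, Cyp51, Nsdhl and Dhcr7 at 2.26 or more, and the others at 1.15 or less. This split was seen after the values were known and was not tested.

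**Figure D3:**
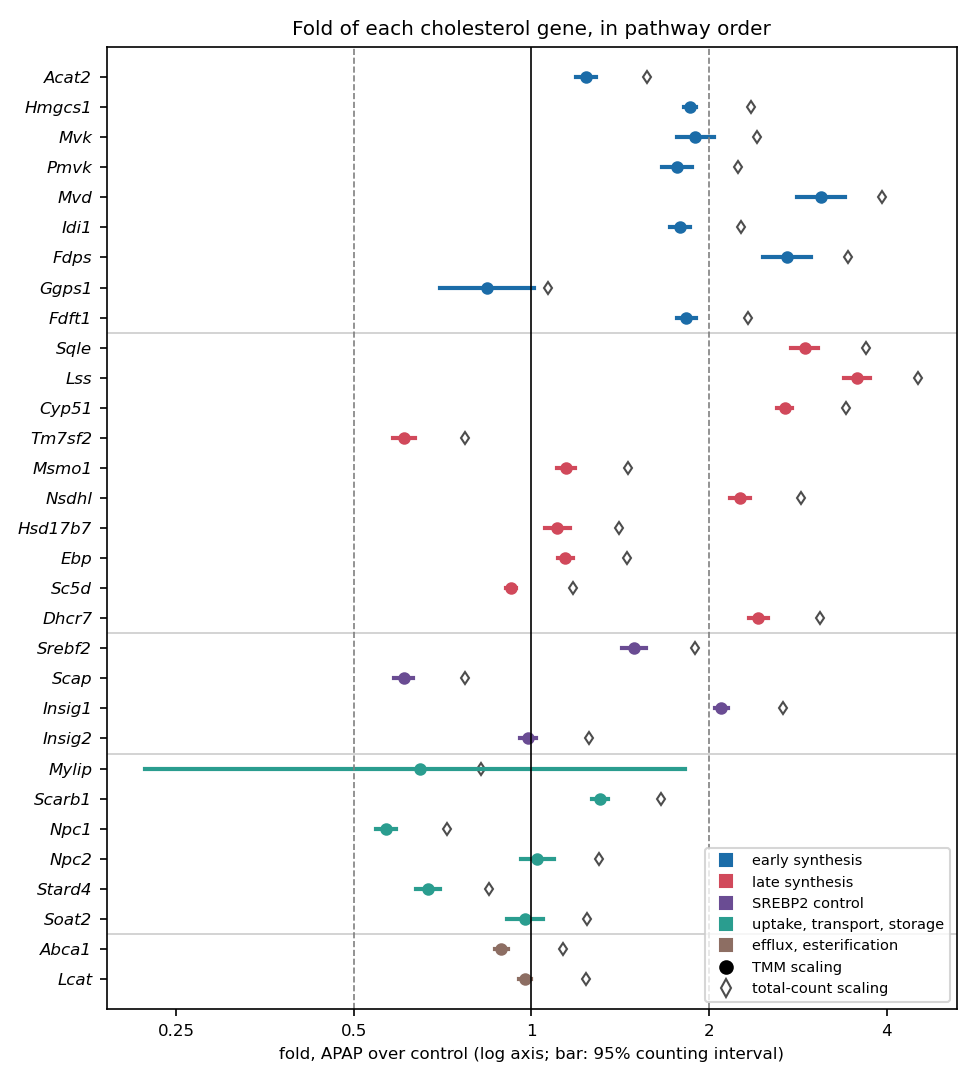
Fold of each member, APAP over control, on a log axis in pathway order. Filled circles with bars are TMM-scaled folds with 95% counting intervals, open diamonds are folds with total-count scaling, and dashed lines mark 2-fold differences. Lss is highest at 3.56 and Npc1 lowest at 0.57, and 6 members change side of 1 with the scaling.

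Among the genes of SREBP2 control the members went different ways. Srebf2, which encodes SREBP2 itself, had 2635 and 4866 counts and a fold of 1.49 (1.42 to 1.57). Scap, its escort, had 6705 and 5036 counts and a fold of 0.61 (0.586 to 0.630), which stayed below 1 with total counts at 0.77. Insig1, a retention protein that is itself a target of SREBP2, had 8315 and 21565 counts, or 179 and 375 CPM, a 2.10-fold higher level (2.05 to 2.15). Insig2, the second retention protein, had 6525 and 7962 counts and a fold of 0.99 (0.955 to 1.02), so no difference was detectable with TMM scaling, and it lay at 1.25 with total counts. Per kilobase of exon, Insig1 stood at 57.8 and 121 CPM and Insig2 at 40.4 and 39.9 CPM, so that Insig1 was the more abundant of the pair per length in both libraries. The intervals of the 4 folds did not overlap.

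The machinery that moves and cuts SREBP proteins, or removes INSIG and other sterol-regulated proteins, showed no shared direction. Of 19 listed genes, 1 was called higher and 0 lower, beside 10.7% and 7.09% of all genes, and the median log2 fold was 0.04. Mbtps1, the first Golgi protease of the pathway, had a fold of 1.03 (0.980 to 1.08), and Mbtps2, the second, had 0.84 (0.728 to 0.975), turning to 1.07 with total counts; both were chosen after their values were seen. The gene called higher was Syvn1, a ubiquitin ligase of endoplasmic reticulum quality control, at 3.35-fold (3.23 to 3.47). The most abundant by counts was Pgrmc1, a membrane haem protein reported to bind INSIG1 and SCAP, at a fold of 0.58 (0.570 to 0.585). With total counts 3 of these genes were called higher, beside 17.3% of all genes.

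Among the members of uptake, intracellular transport and storage, Scarb1, a surface receptor, had an interval above 1 with TMM scaling. The others were near or below 1, or too low in counts to tell. Of the 6, 0 were called in either direction, beside 10.7% of all genes called higher and 7.09% called lower. Scarb1, the HDL receptor for selective uptake of cholesterol esters, had 6650 and 10741 counts and a fold of 1.31 (1.27 to 1.35). Mylip, a ubiquitin ligase that targets lipoprotein receptors, had 10 and 8 counts, under the minimum of 20, and its interval of 0.222 to 1.82 shows that a difference was not detectable at this depth. Npc1, the membrane protein that exports cholesterol from lysosomes, had 5875 and 4117 counts, or 126 and 71.6 CPM, a fold of 0.57 (0.545 to 0.590), the lowest of all members. Its soluble partner Npc2, which hands cholesterol to NPC1, had a fold of 1.02 (0.959 to 1.09), so the intervals of this pair did not overlap. Stard4, a cytosolic sterol carrier and known SREBP2 target, had 3960 and 3271 counts and a fold of 0.67 (0.638 to 0.700). Npc1 and Stard4 stayed below 1 with total counts, at 0.72 and 0.85. Soat2, the enzyme that esterifies cholesterol for storage and for lipoproteins, had 1454 and 1756 counts and a fold of 0.98 (0.911 to 1.05), or 1.24 with total counts.

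Both genes of efflux and plasma esterification were close to their control level. Abca1, the pump that loads cholesterol onto apolipoprotein A-I, had 12048 and 13253 counts, or 259 and 231 CPM, a fold of 0.89 (0.868 to 0.912) that became 1.13 with total counts. Lcat, the plasma enzyme that esterifies cholesterol on HDL, had 14517 and 17513 counts and a fold of 0.98 (0.955 to 0.998), which became 1.24 with total counts. Abca1 and Mylip are targets of the oxysterol receptor LXR. Of 8 other genes of LXR and its targets with enough counts among 9 listed, 0 were called higher and 1 lower. Of all genes, 10.7% were called higher and 7.09% lower. The median log2 fold of the list was -0.19 with TMM, less in size than the upward shift of 0.35 with total counts, so its sign depends on the scaling. The gene called lower was Pltp, a phospholipid transfer protein of plasma, 5.91-fold lower at 38.0 and 6.44 CPM. Abcg8, a subunit of the canalicular sterol pump and the most counted of the list, had a fold of 0.57 (0.546 to 0.592).

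Per kilobase of exon the order of abundance differed between the libraries. In the control library Lcat led with 233 CPM per kilobase, followed by Sc5d at 84.3, Ebp at 70.9, Insig1 at 57.8 and Hmgcs1 at 44.4. In the APAP library Lcat was first at 227, followed by Insig1 at 121, Hmgcs1 at 82.4, Ebp at 81.0, Sc5d at 78.0 and Cyp51 at 77.3. Hmgcs1, Ebp, Sc5d and Cyp51 were close to each other there. These lengths are unions of the exons in GENCODE M21, which is on another build than the counts, so the order is approximate.

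Neighbouring branches of lipid metabolism differed in direction from the sterol enzymes. The fatty acid synthesis list is a set of SREBP1 and its target genes with related lipogenic enzymes. Of its 18 genes with enough counts, 0 were called higher and 6 lower, beside 10.7% and 7.09% of all genes. The median log2 fold of the list was -0.60. Scd1, the stearoyl-CoA desaturase, was at 8879 and 1247 CPM, 7.12-fold lower (interval of the ratio 0.139 to 0.142), and Me1, malic enzyme, was 3.69-fold lower. With total counts 3 of these genes were called lower, beside 4.44% of all genes, and 1 higher, beside 17.3%. Srebf1 itself had a fold of 1.20 (1.17 to 1.22), and Acly, which supplies the acetyl-CoA used by both pathways, had a fold of 1.72 (1.68 to 1.77); both were chosen after their values were seen.

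The enzymes that turn cholesterol into bile acids had the lowest median of the neighbouring sets. Of the 6 listed, 5 were called lower and 1 higher, beside 7.09% and 10.7% of all genes, with a median log2 fold of -1.37. With total counts 3 of the 6 were called lower, beside 4.44% of all genes, and 1 higher, beside 17.3%. Cyp7a1, the rate-limiting enzyme of the classic route, had 11461 and 2017 counts, a 7.02-fold lower level. Cyp7b1, an oxysterol hydroxylase of the alternative route, was 4.21-fold lower at 375 and 89.1 CPM, and Cyp27a1, which starts that route, was 2.51-fold lower. Cyp39a1, a hydroxylase of 24-hydroxycholesterol, was 5.01-fold higher (4.09 to 6.18) but reached only 11.8 CPM. Genes of sterol trafficking were spread around 1. Of 15 with enough counts, 0 were called higher and 1 lower, beside 10.7% and 7.09% of all genes. The 1 called lower was Sort1, a sorting receptor, at 0.50 (0.466 to 0.528), and it was not called with total counts. The most counted of them, Scp2, a sterol carrier and peroxisomal thiolase, had a fold of 0.61 (0.610 to 0.619).

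**Figure D4:**
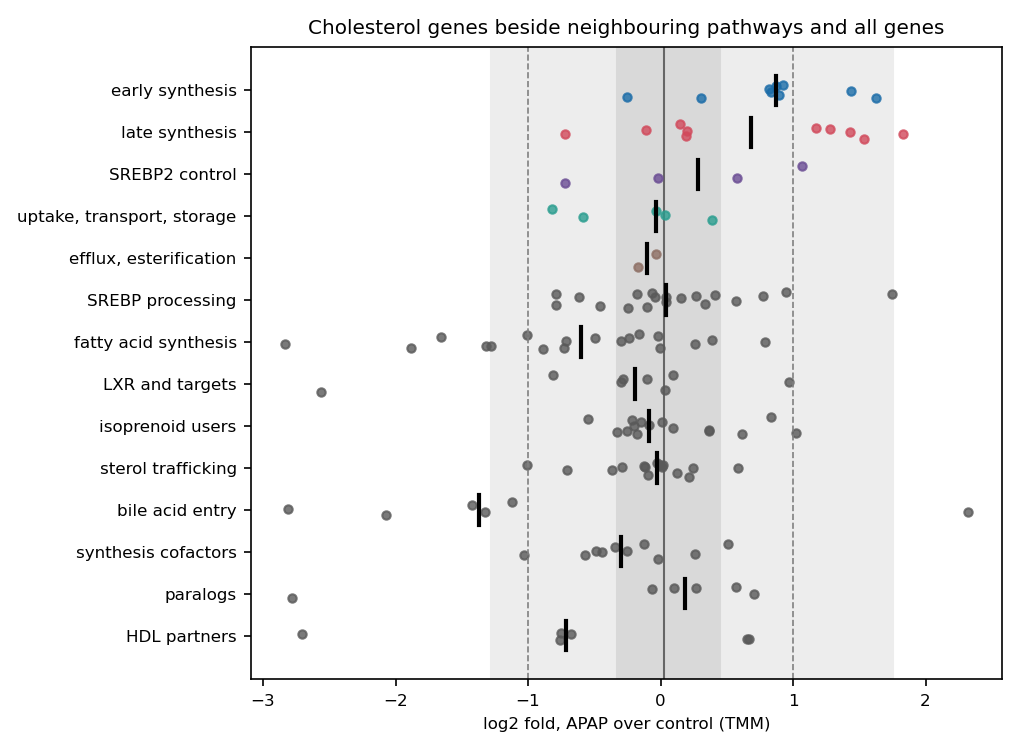
Log2 folds of members and neighbouring gene lists with at least 20 counts, 1 point per gene, with a black bar at the median of each list. The dark and light bands hold the middle 50% and 90% of all 14096 genes, the grey line is their median of 0.02, and dashed lines mark 2-fold. Early synthesis has its median at 0.87, fatty acid synthesis at -0.60 and bile acid entry at -1.37.

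Marker sums of other cells were low, and all but those of lymphocytes were higher after APAP. The hepatocyte list was high in both, with 9 of 10 symbols listed, summed levels of 57078 and 80137 CPM and a median log2 fold of -0.08. Of 15 macrophage markers 7 were listed, with sums of 0.0645 and 6.11 CPM, led by Cd68 with 3 and 287 counts, and Adgre1, Clec4f, C1qb, Vsig4 and Timd4 were not listed. Endothelial markers, 12 of 12 listed, summed to 23.1 and 33.0 CPM, with Stab2 highest in the control library and Eng in the APAP library. Stellate markers, 10 of 11 listed, summed to 1.66 and 12.0 CPM, led by Reln. For cholangiocytes, Sox9 and Spp1 summed to 3.01 and 34.3 CPM, while Epcam, Krt19 and Krt7 were not listed. Neutrophil markers amounted to 0 and 2 counts, and lymphocyte markers to 280 and 6 counts, nearly all from Ighm. The summed difference of the 19 synthesis enzymes, from 1751 to 2732 CPM, stood beside these marker sums, and their part in it was not tested.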

How the data were processed

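Messenger RNA of sorted hepatocytes was sequenced in 2 libraries, 1 per condition. The kit was Tecan's for mRNA, per the labels' protocols. The aligner HISAT2 and the Subread package are named with build mm39, per the submitters' processing notes. Tool versions, annotation, strand setting and treatment of mates were not stated. The authors deposited raw counts per Ensembl gene, without genes at 0 in both libraries, and a normalized signal, in which the deposited values are those counts divided by 1 size factor per library (0.894 for control, 1.12 for APAP).

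Symbols matched 20679 of 20823 identifiers. TMM factors came from edgeR 4.0.16 in R 4.3.3 (0.887 and 1.13). Intervals are exact conditional Poisson intervals and cover counting error only, since reads carried no molecular identifiers. Of counts from 1 to 20, 68.3% and 70.6% were even, so intervals are too narrow if mates were counted separately. Log2 folds carry a prior of 0.5 counts. Word sharing used 50-base words of GENCODE M21 transcripts. Python 3.11.15, numpy 2.4.6, scipy 1.17.1 and pandas 2.3.3 did the rest. The intervals and calls were tested on simulated independent Poisson counts with known folds. That simulation held neither an excess of even counts nor differences between animals, so it does not address them. Alternatives were 5 other scalings (DESeq2 1.42.0 size factors among them), 2 count minimums, 2 fold thresholds, halved counts and a shorter promoter window. The authors' normalized signal, counted among these scalings, was the same scaling as the DESeq2 size factors. The members and lists were chosen with earlier results of these data known. Named genes were all members and, of each neighbouring list, up to 2 called genes farthest in each direction and the most counted one. Other neighbouring genes given for their relation to a member (Acat3, Lbr, Mbtps1 and Mbtps2) were chosen after their values were seen. A single gene was left out of these lists and is not reported here. The printed promoters were chosen after the folds were seen.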

Additional observations from a re-analysis of the deposited data

How the results depend on the processing

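The count of 8 members called higher was 13 with total counts and 13 with totals without genes above 1% of a library. These counts stood beside 17.3% and 17.2% of all genes. At a fold threshold of 1.5 it was 13, beside 17.6% of all genes, and at a threshold of 3 it was 2, beside 6.07%. The count was 8 with DESeq2 size factors, the authors' normalized signal, upper-quartile scaling, no count minimum, a minimum of 100 and halved counts. Under these settings 7.14% to 10.7% of all genes were called higher. The authors' normalized signal has the same size factors as DESeq2, so the 2 are a single scaling under 2 names. Count minimums and halved counts had little room to change the count. Each of the 8 had at least 562 counts in each library, and the lowest of their intervals began at 2.05. The count of 0 called lower became 3 at the 1.5 threshold, where 13.1% of all genes were lower, and was 0 under the 9 other alternatives. Of all genes, 1513 were called higher and 999 lower with TMM, and 2435 and 626 with total counts. The median log2 fold of members ran from 0.31 without a count minimum to 0.69 with total counts. No called member changed direction under any of the 10 alternatives, but none could have. The other scalings shifted log2 folds by only -0.02 to 0.35, and the lowest called member, Insig1, stood at 1.07. Count minimums, thresholds and halved counts leave the fold itself unchanged. Abca1, Ggps1, Insig2, Lcat, Sc5d and Soat2, none of them called, changed side of 1 with the scaling. With 1 mismatch allowed, chosen after seeing the data, the sterol element was found in 45.8% of members and 26.7% of all genes. Among genes with at least 20 counts the share was 28.9%. Mylip was the 1 member under the count minimum, so depth limits its value. No paired analysis was possible because each group had a single library.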

Other observations

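Other genes that use the products of the pathway were spread around 1. Of 15 genes of protein prenylation and the processing after it, tRNA modification, dolichol, ubiquinone or haem A, 1 was called higher and 0 lower. Of all genes, 10.7% were called higher and 7.09% lower. With TMM the median log2 fold of the list was -0.08, and its sign too depends on the scaling. Dhdds, a subunit of the enzyme that builds the dolichol chain, was 2.03-fold higher (1.89 to 2.19), and its partner Nus1, the most counted of the list, had a fold of 1.29 (1.22 to 1.37). Of 10 electron donors and partner factors of sterol synthesis, 0 were called higher and 1 lower, beside 10.7% and 7.09% of all genes. The median log2 fold of the list was -0.30 with TMM, less in size than the upward shift of 0.35 with total counts. Its sign thus depends on the scaling. The gene called lower was Cyb5b, an outer mitochondrial cytochrome b5, at a fold of 0.49 (0.481 to 0.499), which was 0.62 and not called with total counts. Sec14l2, a lipid-binding protein known to stimulate squalene epoxidase and the most counted of the list, had a fold of 0.79 (0.777 to 0.802) and lay just above 1 with total counts.

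Genes that act on HDL with Abca1, Lcat and Scarb1 had a median log2 fold of -0.71 over 6 genes. Of these, 1 was called lower and 0 higher, beside 7.09% and 10.7% of all genes. With total counts 1 was called lower, beside 4.44% of all genes, and 1 higher, beside 17.3%. Lipg, endothelial lipase, which cleaves HDL phospholipids, had 1672 and 316 counts, a 6.54-fold lower level. Apoe, a ligand of hepatic lipoprotein receptors and the most counted gene of the list, had a fold of 0.63 (0.625 to 0.628), and Apoa1, the main HDL protein and acceptor for ABCA1, had a fold of 1.59 (1.58 to 1.60); Apoa1 was chosen after its value was seen. Of 6 genes related in sequence or function to members, 0 were called higher and 1 lower, beside 10.7% and 7.09% of all genes. The 1 called lower was Cd36, a fatty acid and lipoprotein scavenger receptor of the same family as Scarb1, with 1345 and 241 counts and 6.90-fold lower. The most counted of these 6 was Acat1, the mitochondrial acetoacetyl-CoA thiolase, with 15438 and 28334 counts and a fold of 1.48 (1.46 to 1.51).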
